A study of Mus musculus with 6 samples.

Results

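The interleukin 1 family members Il1a, Il1b, Il1rn, Il1r2 and Il18 and the inflammatory caspases Casp1 and Casp4 were followed across 6 single-colour Affymetrix arrays of mouse peritoneal exudate cells. Every probe set whose single platform symbol was one of these 7 genes was taken, which gave 8 probe sets, and the 7 genes are 7 of the 8251 named on the arrays. Peritoneal macrophages is a further name that the labels give them, and the strain label of all is C57BL/6. Wild-type cells (WT), cells lacking NF-IL6 (KO) and cells of a line labelled KI(LAP) (KI) were measured without treatment and after exposure to LPS, or lipopolysaccharide, together with interferon-γ. Cebpb encodes NF-IL6, better known as the transcription factor C/EBPβ, of which LAP denotes the activating form. A stimulation time, 12 h, was labelled for KO and KI but not for WT cells. The labels did not describe how either allele was made, the age of the mice, how the exudate was raised or whether an array stood for 1 animal or a pool. Each combination had a single array, and the precision of all values is limited by that number.

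Interleukin 1α and interleukin 1β are separate gene products that act on the same receptor and start fever, endothelial activation and the production of further cytokines. Interleukin 1β and IL-18 are made as inactive precursors, and caspase-1 cleaves both inside protein complexes called inflammasomes. Caspase-11, the product of mouse Casp4, is activated by LPS in the cytosol and cuts gasdermin D, which opens pores in the membrane. The receptor antagonist encoded by Il1rn and the decoy receptor encoded by Il1r2 limit the action of interleukin 1.

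The regulatory letters of 3 members are shown first, because Il1b and Il1a had the largest changes after stimulation and Casp4 the largest of the caspases, and because the gene removed in KO cells encodes a factor that binds DNA. These are RefSeq promoter sequences of GRCm38.p6, 250 bases before the annotated start, 5′ to 3′ on the gene's strand. Those of Il1a (chr2:129309973-129310222, minus strand) and Il1b (chr2:129371140-129371389, minus strand) come from neighbouring protein-coding genes, and that of Casp4 (chr9:5308599-5308848, plus strand, the first of 2 entries) from a gene that lies between Casp1 and Casp12. Capitals mark matches to the C/EBP letters TTNNGNAA on either strand.

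Il1a: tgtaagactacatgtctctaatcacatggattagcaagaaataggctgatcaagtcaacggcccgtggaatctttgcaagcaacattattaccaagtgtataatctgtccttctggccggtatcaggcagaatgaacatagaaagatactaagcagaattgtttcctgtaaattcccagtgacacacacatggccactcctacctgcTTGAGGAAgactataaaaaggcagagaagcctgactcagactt
Il1b: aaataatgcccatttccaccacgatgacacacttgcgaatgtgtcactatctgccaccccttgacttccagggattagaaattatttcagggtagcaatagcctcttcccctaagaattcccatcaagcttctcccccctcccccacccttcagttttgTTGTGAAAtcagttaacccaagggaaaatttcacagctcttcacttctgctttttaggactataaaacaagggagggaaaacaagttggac
Casp4: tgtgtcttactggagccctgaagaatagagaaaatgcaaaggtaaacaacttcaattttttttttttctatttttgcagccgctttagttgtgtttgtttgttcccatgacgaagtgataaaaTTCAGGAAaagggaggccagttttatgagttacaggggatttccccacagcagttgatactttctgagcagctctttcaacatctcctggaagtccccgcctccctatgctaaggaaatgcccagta

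The match lay 43 to 36 bases before the start in Il1a, 91 to 84 bases before it in Il1b and 127 to 120 bases before it in Casp4. Of the 10 promoter entries of the 7 genes, 6 held the C/EBP letters, against 36.8% of 32851 promoter entries of this length. These 6 belonged to 4 of the 7 genes, Il1a, Il1b, Il1rn and Casp4. The 2 entries of Casp4 overlap, as do entries 2 and 3 of Il1rn, so 1 site can count in 2 entries here and below. The NF-κB letters GGGNNNNNCC were in 5 of 10 entries, in Il1rn, Casp1 and Casp4, against 45.8% of all, and in Casp4 several of these matches overlapped each other. The AP-1 letters TGANTCA were in 2 entries, 1 of Il1a and 1 of Il1rn (6.75% of all entries), and the letters TTCNNNGAA of a STAT site in 1, that of Il1r2 (7.02%). The letters GAAANNGAAA of an interferon-stimulated response element (2.98% of all entries) and TGACGTCA of a cyclic AMP response element (1.55%) were in 0 of 10. All were searched on both strands, and a match is a description of the letters in this window.

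Values are MAS5 signals on a linear scale. Before log2 was taken, signals under 98.0, the 40th percentile of all scaled values, were set to this floor, and a fold against a signal under it is given as at least that size. Tests covered the 9344 probe sets that passed the floor on 1 array or more, and all 8 member probe sets were among them. Median signals ran from 131 to 185 and were lowest on the KI arrays. Of the marker lists, all 9 macrophage genes were above the floor on all 6 arrays, with summed signals from 40359 on the stimulated KO array to 60563 on the untreated KI array. Of 6 B cell markers, 5 were above the floor on every array, and their sum was 6981 and 3624 in WT, 6017 and 2813 in KO and 1679 and 1892 in KI cells (untreated, then stimulated). Dendritic cell markers (3 of 4 above the floor on some array) summed to 1664 and 2493 in WT, 2723 and 3706 in KO and 7759 and 3658 in KI cells. Of the 7759 in untreated KI cells, Itgax alone gave 7301, while Flt3 was at 375 there against 746 in WT and Ccr7 at 78.5 against 85.2. Above the floor on some array were 4 of 7 mast cell, 4 of 7 mesothelial, 1 of 5 T cell, 1 of 4 eosinophil and 0 of 4 NK cell markers. Cebpb was at 5492 and 9329 in WT, 12.7 and 59.0 in KO and 2284 and 5890 in KI cells. In these bulk samples fewer cells of a type and less RNA per cell cannot be told apart.

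**Figure D1:**
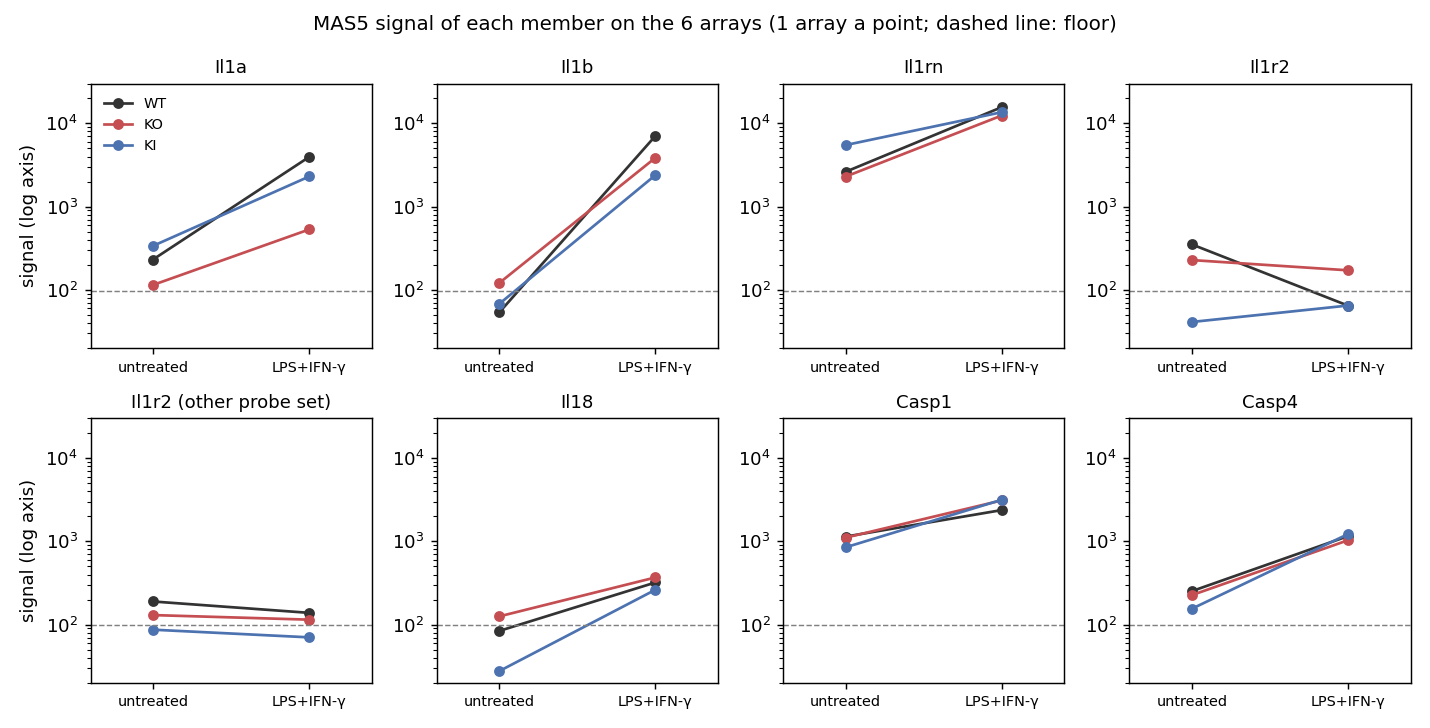
MAS5 signal (vertical, log axis) of each member probe set on the untreated and stimulated array of WT, KO and KI cells, with 1 array at each point and the floor of 98.0 dashed. Signals of Il1a, Il1b, Il1rn, Il18, Casp1 and Casp4 were higher on the stimulated array in each genotype, and Il1a in stimulated KO cells, at 532, lay far under WT and KI.

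Stimulation raised 6 of the 7 genes. Over the 3 genotypes the mean log2 change was 5.26 for Il1b (SE 0.34, limma adjusted p = 0.00211), 3.03 for Il1a (SE 0.39, limma adjusted p = 0.0138), 2.46 for Casp4 (SE 0.25, limma adjusted p = 0.00772) and 2.11 for Il1rn (SE 0.27, limma adjusted p = 0.0141). Il18 rose by 1.56 (SE 0.21, limma adjusted p = 0.0165) and Casp1 by 1.48 (SE 0.19, limma adjusted p = 0.0141). The means of Il1b and Il18 hold untreated WT and KI signals set to the floor and are lower bounds. For Il1r2 the change of -0.75 (SE 0.39, limma adjusted p = 0.295) did not pass. Over all 9344 probe sets, 5.03% rose and 6.01% fell by the same test, and none of the 7 genes fell, also at an unadjusted p under 0.05, which 2545 of the 9344 probe sets passed in either direction. The median log2 change of the 7 genes was 2.11, beside -0.12 over all probe sets tested. The fit had genotype as a block and 2 residual degrees of freedom, so its error is the variation of the response between the genotypes and not between replicate cultures.

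The calls needed all 3 genotypes. With both WT, both KO or both KI arrays left out, 0 of the 7 genes passed, with log2 changes from 2.49 to 3.43 for Il1a and from 4.81 to 5.59 for Il1b. Without the filter on low signals 0 passed as well, where 3078 probe sets at the floor on every array entered the fit. Il1a did not pass without genotype as a block (limma adjusted p = 0.0594), nor did Il18 once the floor was at the 60th percentile (0.33, limma adjusted p = 0.134).

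**Figure D2:**
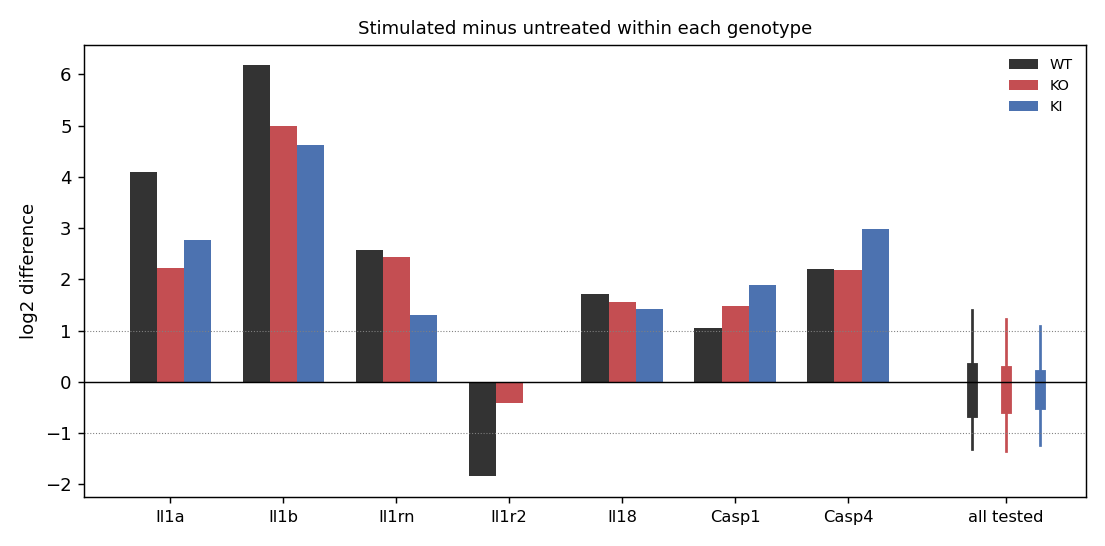
Log2 difference, stimulated minus untreated, for each gene in WT, KO and KI cells (bars, 1 array a state), with dotted lines at a size of 1 and, at the right, the spread of all 9344 probe sets tested (thick, 25th to 75th percentile; thin, 5th to 95th). Il1b had the tallest bar in each genotype, 6.18, 5.0 and 4.61, and Il1r2 had none above 0. Bars of Il1b and Il18 in WT and KI and of Il1r2 in WT rest on a signal set to the floor and are lower bounds of size.

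Il1a, the gene of interleukin 1α, gave 232 without and 3956 with stimulation in WT cells. It was at 115 and 532 in KO cells and at 338 and 2302 in KI cells. The stimulated signals of WT and KI were thus the high ones, and the stimulated KO signal stood between them and the 3 untreated signals. The rise was 17.1-fold in WT, 4.64-fold in KO and 6.81-fold in KI cells. After stimulation Il1a was 7.43-fold lower in KO than in WT, the 11th lowest of the 9344 differences between these arrays. It was the only one of the 7 genes lower by at least 1 on the log2 scale between these arrays, as were 3.24% of all probe sets. With no time in the WT label, time and genotype cannot be told apart in contrasts of stimulated cells with WT. Stimulated KI cells lay 1.72-fold below WT and 4.33-fold above KO, the 8th highest of the differences between KI and KO. Il1a was again the only one of the 7 genes higher there by at least 1, as 1.49% of all probe sets were.

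Before stimulation, Il1a was 2.02-fold lower in KO than in WT, and 4.3% of all probe sets lay below WT by a log2 size of 1 or more. This difference of -1.02 was -0.93 with quantile normalization, -0.91 with median centring and -0.77 with a pseudocount in place of the floor, all short of 1. Averaged over both states, Il1a differed between KO and WT by -1.95 on the log2 scale (SE 0.47, limma adjusted p = 0.432) and did not pass the test. Beside the low stimulated KO signal stood the sum of the 9 macrophage markers, 52757 in stimulated WT, 40359 in KO and 43994 in KI cells. Of these markers, Adgre1 (6126 in stimulated KO, 5562 in stimulated WT), Fcgr1 (4639, 3863) and Itgam (728, 722) were not lower in KO. The others were lower there. These were Cd14 (2845 in stimulated KO, 7915 in stimulated WT), Csf1r (1799, 4787), Msr1 (484, 1155.5), Mertk (627, 1014.5), Cd68 (9610, 12527.5) and Lyz2 (13501, 15210.5). The part of macrophage content in the Il1a result was not tested.

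Il1b, the gene of interleukin 1β, gave 53.7 without and 7088 with stimulation in WT cells. KO cells gave 121 and 3870 and KI cells 68.0 and 2397. All untreated signals were close to or under the floor, and every stimulated signal was far above it. The rise was at least 72.3-fold in WT, 32.0-fold in KO and at least 24.5-fold in KI cells. In KO cells, where both signals were above the floor, it ranked 27th among 9344 probe sets. The order of the stimulated signals differed from that of Il1a. Il1b was lowest in KI cells, 2.96-fold below WT, and it was the only one of the 7 genes lower there by at least 1 on the log2 scale, with 4.9% of all probe sets. In stimulated KO cells it was 1.83-fold below WT, a difference of -0.87 that did not reach that size. Averaged over both states, Il1b differed from WT by -0.28 in KO (SE 0.41, limma adjusted p = 0.791). In KI cells the averaged difference was -0.78 (SE 0.41, limma adjusted p = 0.401). These averages hold untreated WT and KI signals set to the floor. With the floor at the 20th percentile they were 0.15 in KO and -0.61 in KI cells.

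Il18, whose product acts with IL-12 to raise interferon-γ in lymphocytes, was weak on these arrays. Its signals were 84.1 and 321 in WT, 126 and 369 in KO and 27.7 and 263 in KI cells. The signal was higher on the stimulated array in each genotype. The rise was at least 3.28-fold in WT, 2.94-fold in KO and at least 2.68-fold in KI cells. Stimulated signals differed by 1.405-fold at most, between KO and KI cells. With an untreated KI signal far under the floor, the KI difference from WT in induction turned from -0.29 to 1.13 when the floor was set at the 20th percentile.

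Among the inhibitors, Il1rn was strong on every array. Its signals were 2619 and 15651 in WT, 2293 and 12426 in KO and 5484 and 13625 in KI cells. The untreated KI signal was the highest of its state. The rise was 5.97-fold in WT, 5.42-fold in KO and 2.48-fold in KI cells. Untreated KI cells were 2.10-fold above WT and 2.39-fold above KO cells. Il1rn was the only one of the 7 genes higher in untreated KI than WT by a log2 size of 1, with 8.14% of all probe sets, and it joined Il1a in the contrast of untreated KI and KO, with 2.85%. With quantile normalization the difference from WT was 0.96. After stimulation the 3 genotypes lay within 1.26-fold of each other, so the smaller rise in KI cells came with a higher start.

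Il1r2, the decoy receptor, went the other way in WT cells. Its main probe set was at 352 and 64.7 in WT, 228 and 172 in KO and 41.2 and 64.9 in KI cells. Only the untreated WT array and both KO arrays were above the floor. The decline in WT was at least 3.59-fold, and 10.1% of all probe sets fell as far as 1 or more on the log2 scale. When the floor was the 60th percentile this change was -0.49. Untreated KI cells were at least 3.59-fold below WT and at least 2.33-fold below KO, with 10% and 5.36% of all probe sets lower by at least 1. A further Il1r2 probe set, of a type that can bind related transcripts, gave 190 and 139 in WT, 130 and 115 in KO and 87.0 and 70.4 in KI cells. In untreated cells the order of the genotypes was the same there, with KI at least 1.94-fold below WT. The WT decline was 1.37-fold on this probe set, short of a log2 size of 1.

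The neutrophil markers as a sum had another order than Il1r2. The sum of 12 neutrophil markers was 3553 and 3316 in WT, 2582 and 2320 in KO and 3906 and 2257 in KI cells, and S100a9, Ngp and Cxcr2 were under the floor on all 6. This sum was highest in untreated KI cells, where Il1r2 was lowest, but of the 3906 there Mmp9 alone gave 1922. Neutrophil markers above the floor numbered 8 in untreated WT, 7 in untreated KO and 6 in untreated KI cells, which was the order of Il1r2. After stimulation they numbered 5 in WT, 5 in KO and 4 in KI cells. The main Il1r2 probe set had another order there, 64.7 in WT, 172 in KO and 64.9 in KI cells. Single markers differed: Mmp8, a neutrophil collagenase, was at 493 and 55.8 in WT, 293 and 35.1 in KO and 52.2 and 29.2 in KI cells. Mmp9, a gelatinase, was at 95.3 in untreated WT and 1922 in untreated KI cells, S100a8 at 507 and 556, and Ltf at 114 and 193. The other markers that passed the floor on some array were, like Mmp8, lower in untreated KI than in untreated WT cells. These were Elane (375 in WT, 144 in KI), Camp (372, 203), Csf3r (1219, 706), Ly6g (103, 4.8) and Mpo (110, 54.4). Mmp8 was named after its values were seen. Untreated KI cells also had the lowest B cell sum, 1679. The part of these cells in the Il1r2 signals was not tested.

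Both inflammatory caspases rose in every genotype. Casp1, which encodes the enzyme that matures interleukin 1β and IL-18, was at 1141 and 2376 in WT, 1108 and 3106 in KO and 849 and 3160 in KI cells. WT had the lowest of the 3 stimulated signals. The rise was 2.08-fold in WT, 2.80-fold in KO and 3.72-fold in KI cells. Stimulated KO and KI cells were 1.31-fold and 1.33-fold above WT, short of a size of 1 on the log2 scale.

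Casp4, the gene of caspase-11, was at 252 and 1157 in WT, 226 and 1032 in KO and 155 and 1224 in KI cells. Casp4 had both its lowest untreated and its highest stimulated signal in KI cells. Its rise was 4.58-fold in WT and 4.56-fold in KO cells, a difference in log2 change of -0.01, and 7.88-fold in KI cells. The stimulated signals lay within 1.19-fold of each other, and the untreated KI signal was 1.63-fold below WT. Averaged over both states, Casp4 differed from WT by -0.16 in KO (SE 0.30, limma adjusted p = 0.845) and by -0.31 in KI cells (SE 0.30, limma adjusted p = 0.589).

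**Figure D3:**
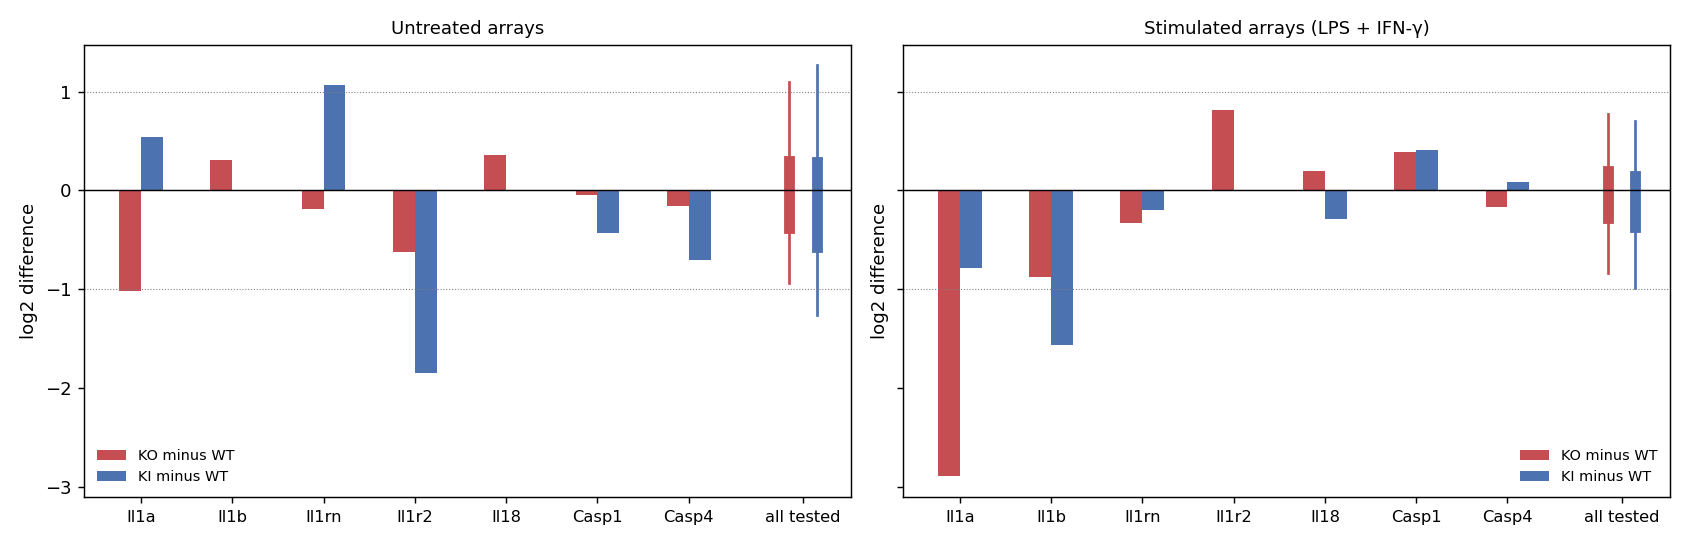
Log2 difference from WT of KO and KI cells on the untreated and on the stimulated arrays (bars, 1 array a group), with the spread of all 9344 probe sets at the right of each panel (thick, 25th to 75th percentile; thin, 5th to 95th). On the stimulated arrays the bars past 1 are Il1a in KO, at -2.89, and Il1b in KI, at -1.56; genes under the floor in both groups have no bar, and a bar with 1 of its signals under the floor is a lower bound of size.

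Read across genotypes, the rise of at least 1 on the log2 scale held for the same 6 genes in each genotype. In WT cells 8.54% of all probe sets rose that far, in KO 6.54% and in KI 5.58%. By at least 1, the log2 change was smaller in KO than in WT for Il1a (a difference of -1.88) and Il1b (-1.18). The Il1b difference is -1.18 or lower, since untreated WT was under the floor. Of all probe sets, 7.17% had a difference this way of 1 or more. For Il1b it was -0.94 after median centring and -0.87 when the floor was the 60th percentile, both short of 1. In KI cells the change was smaller than in WT by at least 1 for Il1a (-1.32) and Il1rn (-1.27). Il1b had both untreated signals under the floor, so its difference of -1.56 is that of the stimulated signals over again and not a measured difference in rise. With Il1b counted, 3 of the 7 genes were on this side, which held 8.87% of all. The Il1rn change was also smaller in KI than in KO (-1.13), with 4.09% of all probe sets. On the other side, where 5.37% of all probe sets lay for KO and 6.77% for KI, was Il1r2. Its log2 decline was deeper in WT than in KO by at least 1.44, and in KI cells no change could be measured, since both signals were under the floor. The call was lost for both mutants with the further Il1r2 probe set (0.27 for KO and 0.45 for KI) and with the floor at the 60th percentile (0.49 for both), and for KO with the mean of both probe sets (0.85). These differences share the WT arrays and have no test. In the fit of genotype over both states 0 of the 7 genes passed limma's test in any of the 3 contrasts. At an unadjusted p under 0.05 Il1a was lower in KO than in WT and higher in KI than in KO, and 0 of the 7 genes, each by its main probe set, differed between KI and WT. The further Il1r2 probe set was lower in KI than in WT at that unadjusted threshold, and it did not pass after adjustment (-0.73, SE 0.19, limma adjusted p = 0.224). Over all probe sets 0% passed between KO and WT, 0.0107% between KI and WT and 0% between KI and KO, with 945, 1597 and 704 at an unadjusted p under 0.05.

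Of 30 listed receptors and signalling genes of interleukin 1 and IL-18, 15 were on the arrays, 13 could be tested, 3 rose and 0 fell (limma, 5 and 2 at an unadjusted p under 0.05, beside 2545 of all 9344 probe sets). Their median log2 change was 0.31, beside -0.12 over all probe sets. Il18bp, the secreted protein that binds IL-18, rose by at least 4.23 (SE 0.21, limma adjusted p = 0.0012), as its untreated KO signal was set to the floor. Its signals were 167 and 2904 in WT, 82.4 and 2431 in KO and 165 and 2508 in KI cells, so the 3 stimulated signals lay far above the rest and close together. Peli1, a ubiquitin ligase of this pathway, rose by 1.72 (SE 0.18, limma adjusted p = 0.00858) and Myd88, the adaptor of the receptors, by 0.88 (SE 0.18, limma adjusted p = 0.0459). Il1r1, the signalling receptor for interleukin 1, was at 250 and 273 in WT, 259 and 55.7 in KO and 360 and 175 in KI cells. Its stimulated signal was thus low in KO and highest in WT, and its mean change did not pass (-0.77, SE 0.37, limma adjusted p = 0.256). Il1rap and Il18r1, further receptor chains, were under the floor on all arrays, and Traf6, the ligase below Irak1, gave 0.79 (limma adjusted p = 0.0903), which did not pass.

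Only 5 of 21 listed genes of inflammasome assembly and release were on the arrays. Of these, Ninj1, which ruptures the membrane of dying cells, rose by 0.79 (SE 0.11, limma adjusted p = 0.0183). Txnip, a thioredoxin-binding protein linked to NLRP3 activation, fell by 2.22 on the log2 scale (SE 0.17, limma adjusted p = 0.0035). Its signals were 2401 and 595 in WT, 3047 and 507 in KO and 2932 and 709 in KI cells. P2rx7, the ATP-gated channel that triggers release of interleukin 1β, had signals from 370 to 495 on all arrays (log2 change -0.04, SE 0.20, limma adjusted p = 0.917). Nek7, a kinase that binds NLRP3, was at 1162 and 886 in WT, 2502 and 1744 in KO and 2316 and 1881 in KI cells, higher in both mutant lines than in WT in each state. Its change with stimulation did not pass (limma adjusted p = 0.115).

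Of 5 other caspases tested, 0 rose and Casp9, the caspase of the mitochondrial route, fell by 1.0 on the log2 scale (SE 0.20, limma adjusted p = 0.0412). None rose at an unadjusted p under 0.05, and with median centring Casp9 did not pass. Casp12, the next gene to Casp4, was under the floor on all arrays. Casp8 was at 757 and 373 in WT, 658 and 722 in KO and 423 and 364 in KI cells. Its log2 change was -1.02 in WT, 0.13 in KO and -0.22 in KI cells. Of 6 tested proteases that can also cut interleukin 1 precursors, 0 passed limma's test (0 higher and 1 lower at an unadjusted p under 0.05), and 1 of them, Elane, is a neutrophil marker as well. Capn1, a calpain, was at 650 and 1425 in WT, 1319 and 1641 in KO and 1589 and 1580 in KI cells.

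**Figure D4:**
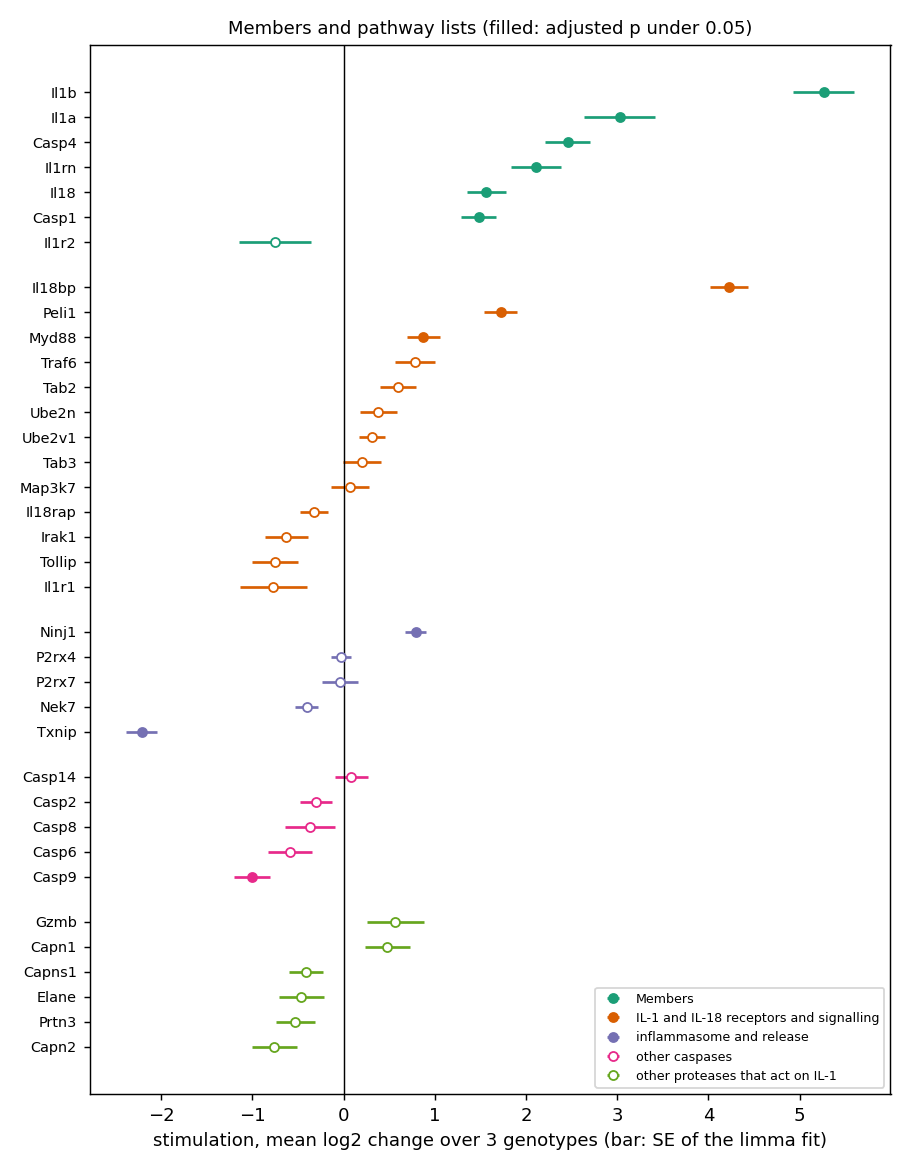
Mean log2 change with stimulation over 3 genotypes (horizontal; bars, SE of the limma fit) for the 7 genes and the measured genes of 4 pathway lists, filled where the limma adjusted p was under 0.05. Il18bp, at 4.23, lies highest among the genes of the lists, between Il1b and Il1a, and Txnip, at -2.22, lies lowest.

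Genes with the most similar patterns were sought among 6760 other named genes by the root-mean-square distance of log2 values, each centred on its mean over the 6 arrays. Nearest to Il1a were Marco, a scavenger receptor (0.62), Lmo4, a LIM-domain protein (0.62) and Sod2, the mitochondrial superoxide dismutase (0.67). All 3 had their lowest stimulated signal in KO cells, 256, 2005 and 1261. Marco was under the floor in untreated KO (12.1) and KI cells (21.1), so that part of its pattern is the floor value. Nearest to Il1b were Upp1, a uridine phosphorylase (0.38), AW112010 (0.45) and Ptgs2, the inducible cyclooxygenase (0.51). Upp1 and Ptgs2 were under the floor on every untreated array, so that part of their patterns is the floor value. Stimulated Ptgs2 was higher in KO than in WT cells (6938 against 5975), unlike Il1b. Il1rn was followed more closely, by Rcn1 (0.10), P4ha1, a prolyl hydroxylase subunit (0.14) and Agrn (0.16). Each had its highest untreated signal in KI cells, and that of Agrn in KO cells (65.7) was under the floor. Casp4 was followed by Lgals9, a galectin (0.093), Pla2g4a, the cytosolic phospholipase A2 (0.14), and Slfn2 (0.14), each with its lowest untreated signal in KI cells. Of these 4 members, Il1a had the most distant neighbours. Traits that a member shares with its nearest genes follow from how these genes were picked.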

How the data were processed

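RNA extracted with Trizol from the cells was hybridised as biotin-labelled cRNA, per the labels' protocols. The deposited table holds linear signal intensity for 12488 probe sets, which the authors made with MAS5, as named in the submitters' processing notes. The MAS5 version, the scaling target and detection calls were not given in the sources used here. Intensities were rescaled to a common trimmed mean (2% left out at each end), floored at the 40th percentile and converted to log2. The 66 control probe sets were left out. For a gene with several probe sets the one of highest mean log2 intensity was used, named from the platform annotation, where 10833 probe sets have 1 symbol, 396 several and 1193 none; none was named from several.

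R 4.3.3 and limma 3.58.1 were used: an additive fit of stimulation and genotype over 6 arrays, moderated by eBayes along an intensity trend, with Benjamini-Hochberg values over 9344 probe sets called at 0.05. An exact permutation test of 3 against 3 arrays has 0.1 as its smallest p and was therefore left out. Differences within a genotype or state have no residual degrees of freedom and are given by size, called at 1 on the log2 scale. The code was tested on simulated data. Alternatives were the floor, a pseudocount of 50, the scaling, the filter, the trend, the block, the arrays and the Il1r2 probe set. Genes named are the 7 members, Cebpb, marker genes, the genes of 4 pathway lists and the 3 genes nearest to each of 4 members. Members and lists were chosen with earlier results of these data known. Promoter letters and gene order came from RefSeq tables of GRCm38.p6.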

Additional observations from a re-analysis of the deposited data

Results flagged for a closer look

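Log2 changes with stimulation lay on opposite sides of 0 in different genotypes, and at least 1 apart, for 3 genes of the pathway lists. Each rests on 1 array a group, and the differences were not tested. The log2 change of Il1r1 was 0.13 in WT and -1.04 in KI cells, a difference of -1.17. In KO cells it was -1.40 or lower, since the stimulated signal was under the floor, a difference from WT of -1.53 or lower. That of Casp8 was -1.02 in WT and 0.13 in KO cells, a difference of 1.16. That of Capn1 was 1.13 in WT and -0.01 in KI cells, a difference of -1.14 in which the KI cells hardly changed. Among the 7 members, Il1r2 had no such pair of changes with the floor used, which sets its KI change to 0. Its changes were -1.81 in WT and 0.33 in KI cells with a pseudocount of 50 in place of the floor. Once the floor was the 20th percentile they were -2.44 and 0.66. Both KI signals of this main probe set, 41.2 and 64.9, were under 98.0. The further Il1r2 probe set, also under 98.0 in KI cells, went the other way there, from 87.0 to 70.4.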

How the results depend on the processing

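The count of 6 members that rose was 5 or 6 under every other setting tried, and 0 without the filter on low signals and 0 without the WT, the KO or the KI arrays, where 1 residual degree of freedom is left. Every member kept the direction of its mean change under all of these. Over all probe sets, 470 rose and 562 fell. Without the filter these were 49 and 20, without the KI arrays 13 and 0, without the WT arrays 0 and 0, and without the KO arrays 0 and 0. A pseudocount of 50 gave 970 that fell. Median centring gave 613 and 372, so that 62.2% of calls were higher in place of 45.5%, and moved the median change of all probe sets by 0.12. In untreated KO cells 1 member, Il1a, was lower than WT by at least 1, and 0 were with a floor at the 60th percentile, a pseudocount, quantile normalization or median centring. In untreated KI cells 1 member, Il1r2, was, and 2 were with a floor at the 20th percentile, 0 with one at the 60th and 0 with the other Il1r2 probe set. Induction was lower in KO than in WT for 2 members, and for 1 with a floor at the 60th percentile or median centring. With a floor at the 20th percentile the Il18 difference in induction of KI turned to 1.13 against WT and 1.51 against KO, because the untreated KI signal of 27.7 then entered below 98.0. Members under 98.0 on some arrays (Il1b, Il1r2 and Il18) are limited by signal over background. Other causes were not tested. The untreated and stimulated arrays were paired by genotype, and 5 members rose without that block. Groups of 1 array have no replicate numbers to pair.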
